A study of Mus musculus with 6 samples.

Results

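Angptl4, Cpt1a, Ucp2, Ucp3 and Pdk4 are genes that fasting raises in heart and muscle, in large part through the peroxisome proliferator-activated receptors (PPARs), and Ucp2 and Ucp3 among them encode uncoupling proteins. These 5 genes are described here in mouse hearts after endotoxin, with and without recombinant human thrombomodulin (rhTM). They were found among the array's non-control probes by matching each probe's transcript accession to the gene symbol. The match gave 6 probes, 2 for Ucp2 and 1 for each other gene, and the 5 genes are 5 of 14701 tested. They were chosen by, in part, the lower array signals of Angptl4, Cpt1a, Ucp2 and Ucp3 in rhTM than in saline hearts, so their differences between the groups are given as a description with no p-value. Counts of members called are printed only beside the share of all genes called, and support nothing.

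All 6 hearts came from male C57BL6 mice, 10 weeks old, that had been starved for 16 h before 20 mg/kg lipopolysaccharide (LPS), the endotoxin of Gram-negative bacteria, was injected into the peritoneum. The saline group (3 mice) received saline and the rhTM group (3 mice) received rhTM, the soluble receptor that turns thrombin toward anticoagulation, 3 and 24 h later. Hearts were taken at 30 h, and each was read on 1 array. Starvation and LPS were common to both groups, and no heart without them was used here, so no value below measures an effect of fasting or of LPS. Whole hearts were used, so that fewer cells of a type and less RNA per cell cannot be told apart.

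PPARs are nuclear receptors that bind fatty acids and, with a retinoid X receptor as partner, switch on genes for the uptake and burning of fat. In fasting, fat released from adipose tissue feeds this system in the heart, which draws much of its energy from fatty acids. Angptl4 protein slows the release of fatty acids from lipoproteins, Cpt1a carries long-chain fatty acids toward mitochondrial oxidation, Pdk4 shuts off the entry of pyruvate, and Ucp2 and Ucp3 are carriers of the inner mitochondrial membrane.

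The promoters of Cpt1a, Ucp2, Ucp3 and Pdk4 are shown because these genes lay lower together in rhTM hearts. They are RefSeq sequences of build GRCm38.p6, from 250 bases before to 50 bases after the annotated start, and 4 of the 5 genes had an entry. Cpt1a is at chr19:3323051-3323350 (+ strand), Ucp2 at chr7:100493108-100493407 (+ strand), Ucp3 at chr7:100472741-100473040 (+ strand) and Pdk4 at chr6:5496229-5496528 (- strand). Capitals mark AGGTCA on either strand, the hexamer that nuclear receptors of the PPAR class bind as a repeat.
Cpt1a: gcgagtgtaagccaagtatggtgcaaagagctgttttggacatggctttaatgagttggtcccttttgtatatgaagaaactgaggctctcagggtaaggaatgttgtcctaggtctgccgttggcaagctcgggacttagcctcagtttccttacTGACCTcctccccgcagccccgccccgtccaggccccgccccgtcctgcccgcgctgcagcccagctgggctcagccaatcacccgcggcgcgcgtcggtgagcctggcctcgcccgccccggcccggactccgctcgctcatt
Ucp2: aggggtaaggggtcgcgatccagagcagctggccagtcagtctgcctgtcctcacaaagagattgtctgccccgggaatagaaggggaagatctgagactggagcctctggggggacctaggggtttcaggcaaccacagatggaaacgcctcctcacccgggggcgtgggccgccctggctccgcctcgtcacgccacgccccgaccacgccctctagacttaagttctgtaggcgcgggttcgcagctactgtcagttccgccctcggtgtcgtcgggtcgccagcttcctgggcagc
Ucp3: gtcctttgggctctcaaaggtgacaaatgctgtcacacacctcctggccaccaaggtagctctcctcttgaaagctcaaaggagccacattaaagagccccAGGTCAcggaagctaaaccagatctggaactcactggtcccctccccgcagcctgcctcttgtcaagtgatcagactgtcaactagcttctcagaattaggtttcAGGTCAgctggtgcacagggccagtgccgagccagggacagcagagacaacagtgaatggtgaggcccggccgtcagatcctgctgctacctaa
Pdk4: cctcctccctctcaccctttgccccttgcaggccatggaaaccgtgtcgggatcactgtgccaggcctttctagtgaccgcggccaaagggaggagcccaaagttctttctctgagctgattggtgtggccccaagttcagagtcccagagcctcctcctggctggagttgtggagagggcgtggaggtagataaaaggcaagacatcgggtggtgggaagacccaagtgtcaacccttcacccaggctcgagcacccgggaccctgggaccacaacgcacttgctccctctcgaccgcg

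The hexamer AGGTCA was found at 2 places in the Ucp3 promoter, at positions -149 and -44 from the start, and at 1 place in that of Cpt1a, on the other strand at -94. Of all 32851 promoters of this length, 16.3% held it on either strand. The direct repeat AGGTCANAGGTCA, searched on both strands, was in none of the 4 promoters and in 0.0396% of all. The GC-rich motif GGGCGG, which does not overlap these, occurred at 3 places in Cpt1a and 2 in Ucp2, and 35.7% of all promoters held it. Ucp2 and Cpt1a had 21 and 22 CpG pairs, against 12 in Pdk4, 5 in Ucp3 and a median of 7 over all. Ucp3 and Ucp2 are neighbours on chromosome 7 with 0 annotated genes between them, yet their promoters share none of the motifs searched. These matches describe letters in a window and do not show binding.

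Signals are given as log2 of the ratio to the 75th percentile of their own array, and n = 3 mice in each group unless stated. Levels of different genes are read by different probes and are not compared. All 6 member probes were well above background on all 6 arrays. The arrays lay on 2 slides, scanned separately: slide 1 held saline 1 and saline 2, and slide 2 held saline 3 and every rhTM array. In the fit with slide as a term (slide-blocked) the estimate equals the within-slide value. A value within slide 2 therefore rests on saline 3 alone. It is given for each member and, for other genes, where it turns the sign or moves the value by over 1.5 times. With saline 3 left out, all saline arrays were on slide 1 and all rhTM arrays on slide 2. Group and slide then coincide, and calls made without saline 3 cannot tell rhTM from slide. Over the arrays, 54.8% to 62.8% of 59305 spots were well above background, none was saturated, and the spike-in r2 was 0.987 to 0.990 on slide 1 and 0.845 to 0.881 on slide 2.

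**Figure D1:**
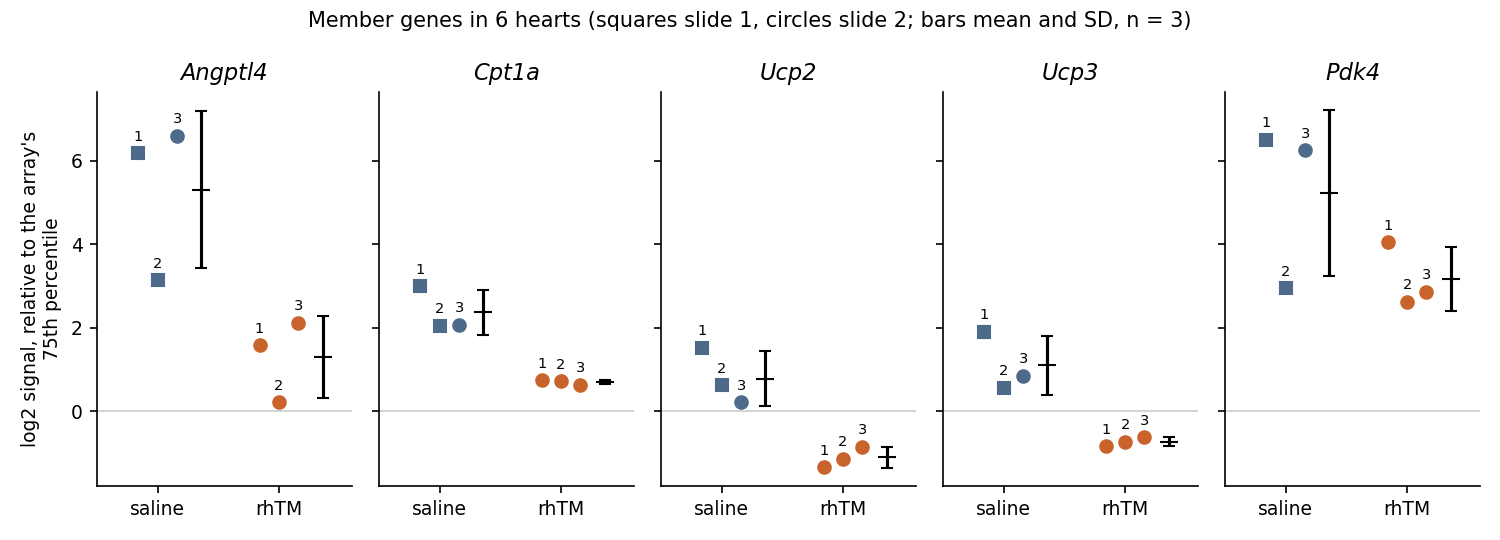
Log2 signal (relative to the 75th percentile of the array) of the 5 genes in each of 6 hearts, with numbers for the mice, squares for slide 1, circles for slide 2, and bars for the mean and SD (n = 3). The rhTM hearts lie below the saline hearts for Angptl4, Cpt1a, Ucp2 and Ucp3, and saline 2 is low for Angptl4 (3.14) and Pdk4 (2.95).

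Angptl4, the secreted inhibitor of lipoprotein lipase, had the largest difference of the 5. Its log2 signal was 6.18, 3.14 and 6.60 in saline hearts 1, 2 and 3 and 1.57, 0.21 and 2.11 in rhTM hearts 1, 2 and 3. The groups did not overlap, but saline 2 was far below the other saline hearts and only 1.03 above the highest rhTM heart. The unscaled scanner signal ran from 5923 to 52958 in saline hearts and from 538 to 1781 in rhTM hearts. The mean was 5.31 ± 1.89 in saline and 1.30 ± 0.98 in rhTM hearts (SD), a difference of -4.01 ± 0.97 (SE of the limma fit), or 16.1-fold lower. Against saline 3 on the same slide the difference was -5.31. Of all 14701 genes tested, 22, Angptl4 included, had a difference this low or lower.

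Cpt1a, the carnitine palmitoyltransferase that dominates in liver and admits fatty acids to mitochondria, was almost identical in the 3 rhTM hearts. It lay at 2.99, 2.05 and 2.07 in saline hearts 1, 2 and 3 and at 0.73, 0.72 and 0.63 in rhTM hearts 1, 2 and 3. All saline hearts were above all rhTM hearts, by at least 1.31. The means were 2.37 ± 0.54 and 0.69 ± 0.05 (SD), so that Cpt1a was 3.19-fold lower with rhTM (-1.67 ± 0.29, SE) and 2.59-fold lower within slide 2 (-1.37).

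Ucp2, the uncoupling protein found in many tissues and in leukocytes, was read by 2 probes. The brighter gave 1.52, 0.61 and 0.21 in saline hearts 1, 2 and 3 and -1.34, -1.14 and -0.85 in rhTM hearts 1, 2 and 3. The groups were apart by 1.06, and saline 1 was the highest heart. The difference was -1.89 ± 0.36 (SE; 3.71-fold lower), from 0.78 ± 0.67 to -1.11 ± 0.25 (SD), and within slide 2 it was -1.32. The other probe gave -1.60 ± 0.27 (SE) and -1.29 within the slide, with no overlap either (-0.66 to 0.06 in saline and -2.09 to -1.84 in rhTM hearts).

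Ucp3, the uncoupling protein of skeletal muscle, heart and brown fat, lay at 1.90, 0.56 and 0.85 in saline hearts 1, 2 and 3. In rhTM hearts 1, 2 and 3 it lay at -0.84, -0.74 and -0.62, within a range of 0.22. The groups were apart by 1.18. The means were 1.10 ± 0.71 and -0.74 ± 0.11 (SD), a difference of -1.84 ± 0.36 (SE), or 3.57-fold lower, and of -1.58 within slide 2.

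Pdk4, the pyruvate dehydrogenase kinase induced by fasting, was the one member whose groups overlapped. Its values were 6.51, 2.95 and 6.25 in saline hearts 1, 2 and 3 and 4.05, 2.62 and 2.86 in rhTM hearts 1, 2 and 3. Saline 2 lay below rhTM 1. The means were 5.23 ± 1.99 and 3.17 ± 0.77 (SD), and the difference of -2.06 ± 0.97 (SE) was of about the size of the spread among saline hearts. It was -3.20 without saline 2, -1.42 without saline 1 and -3.08 within slide 2.

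Cpt1a, Ucp2 and Ucp3, 3 of the 5 members, were among the 355 genes that limma called lower (adjusted p under 0.05), which were 2.41% of all genes tested. Another 405, or 2.75%, were called higher, and centring arrays on the median gene made this 268 lower and 483 higher. Of the 5 members, 4 had groups apart with rhTM lower, beside 18.7% of all genes. Since the members were picked in part for this contrast, nothing is read from these counts. In a fit blocked on the replicate number of the labels the called members were Angptl4 and Cpt1a (1.65% of all genes were called lower, 2.43% higher and 4.07% in either direction). None of the 5 was called when slide-blocked (1.95% lower, 3.83% higher), with 287 genes called lower over all. With no filter on dim probes 0 members were called (0.0833% of all genes lower), and 4, all but Pdk4, were called from the deposited value table (15.7% lower). No member was called without saline 1, rhTM 1 or rhTM 2, where 0 of 14701 genes were called lower. None was called without rhTM 3 either, where 512 genes were called lower. Angptl4 alone was called without saline 2, where 3 genes were called lower. All members but Pdk4 were called without saline 3, where group and slide coincide and 19.1% of all genes were called lower. The direction was the same in every one of these fits for each of the 5 genes, and nothing is read from this either.

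**Figure D2:**
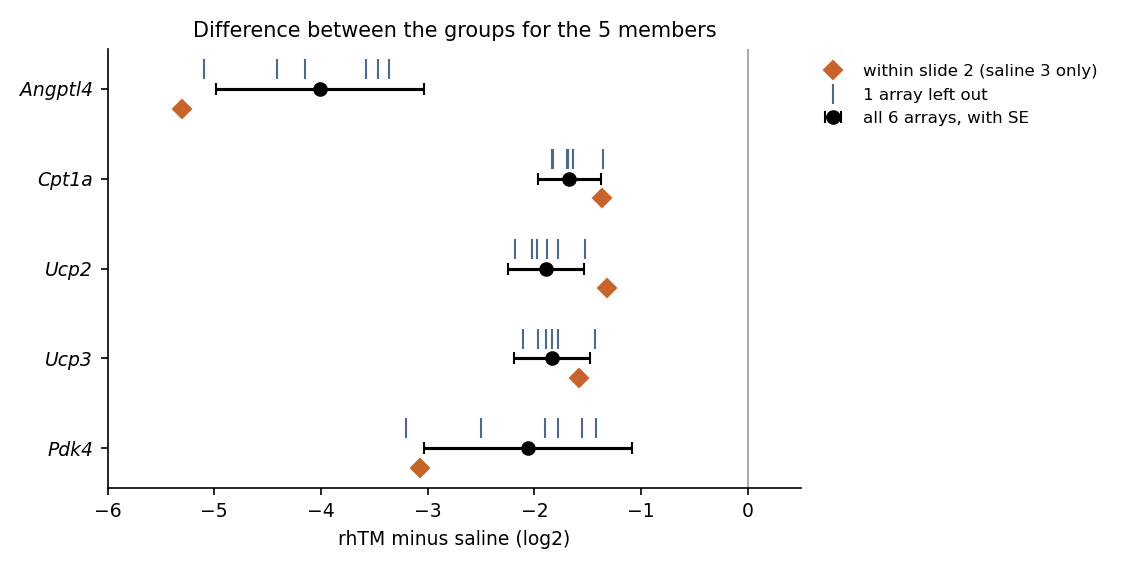
Difference between the groups (rhTM minus saline, log2) for the 5 genes over all 6 arrays with the SE of the fit (black), with 1 array left out at a time (blue ticks), and within slide 2 against saline 3 alone (orange). Leaving out single arrays moved Angptl4 between -5.09 and -3.36 and Cpt1a between -1.83 and -1.36, and no value crossed 0.

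Cpt1a, Ucp2 and Ucp3 had closely alike profiles across the 6 hearts. Likeness was measured as the root mean square difference, over 6 arrays, of log2 values centred on each gene's own mean, among 13537 other genes well above background on all arrays. For Ucp3 the 3 nearest genes were Acer2, an alkaline ceramidase (0.10), Cpt1a (0.17) and Ucp2 (0.22). For Cpt1a they were Acer2 (0.10), Ucp3 (0.17) and Lpcat3, an acyltransferase of phospholipids (0.21). Ucp2 was nearest to Prrc1 (0.18), Ucp3 (0.22) and the collagen IV chain gene Col4a1 (0.22). These profiles share the step between the groups and a raised saline 1. The members were picked in part for that step, so likeness among them is built in to that extent and supports nothing.

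Pdk4 and Angptl4 varied more within the groups and had looser neighbours. The measure is not scaled to the size of a gene's own variation. The distances of these genes, and their order, therefore reflect that size in part and not only the shape of the profile. For Pdk4 they were Asb4 (0.61), the acyl-CoA thioesterase gene Acot1 (0.78) and Txnip, the thioredoxin-interacting protein (0.78). For Angptl4 they were Jaml, a leukocyte adhesion molecule (0.94), Star, the steroidogenic cholesterol transporter (0.94), and Inhba, the activin beta A chain (0.95). Among the members Pdk4 was by this unscaled measure nearest to Ucp3 (1.03), then to Cpt1a (1.11), Angptl4 (1.15) and Ucp2 (1.24). Angptl4 was nearest to Pdk4, and 1.52 to 1.65 from the other members. All these values describe the same 6 arrays and share the step between the groups.

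**Figure D3:**
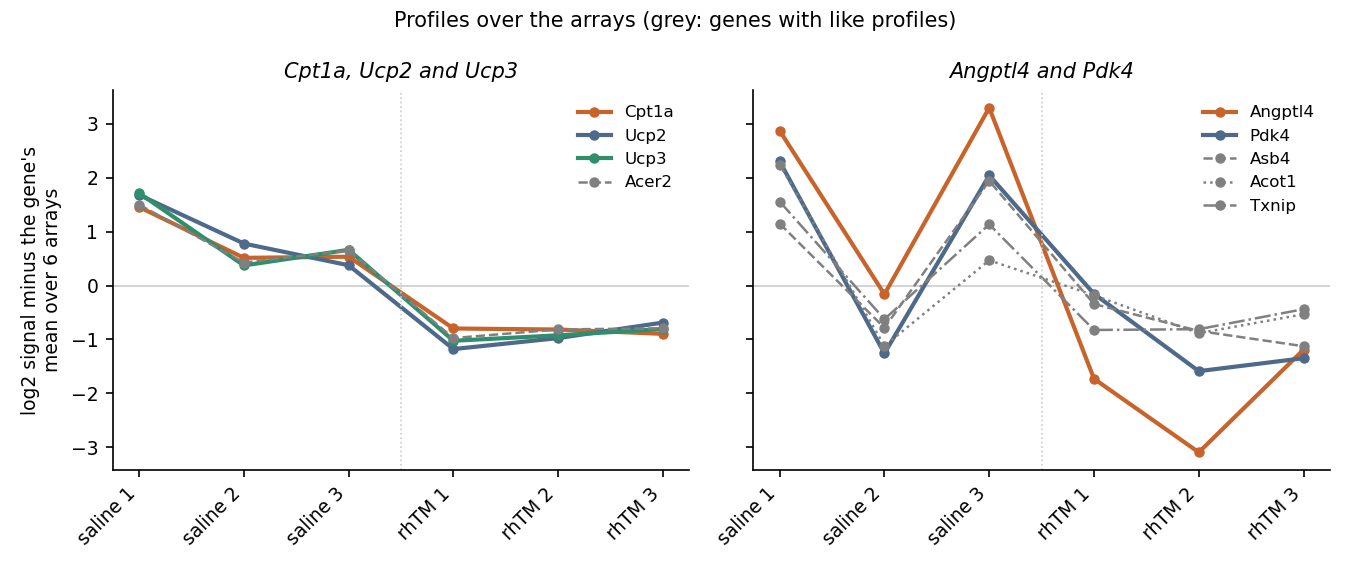
Log2 signal minus the gene's mean over 6 arrays, for Cpt1a, Ucp2 and Ucp3 with Acer2 (left) and for Angptl4 and Pdk4 with Asb4, Acot1 and Txnip (right); the lines only join the values of a gene, since mice of a group have no order. The left genes step down between the groups and also fall from their highest saline heart to the other saline hearts. The right genes dip in saline 2, to -2.17 (Angptl4) and -2.29 (Pdk4) from the saline mean. Cpt1a and Ucp3 are also lowest among saline hearts in saline 2, by less.

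Within the saline group, which all had the same treatment, saline 2 had low signals of several fat-responsive genes. Angptl4 stood at -2.17 and Pdk4 at -2.29 from the saline mean in that heart, and 9 and 7 of the 14701 genes tested, these included, were as far below or farther. Among the other PPAR targets, genes chosen here after their values were seen, Acot1 stood at -1.65, the lipid droplet protein gene Plin2 at -1.33, Acot2 at -0.85 and the peroxisomal gene Pex11a at -0.81. Of that list 21 of 32 lay below the saline mean in saline 2. Others lay above it, such as G0s2 (0.70) and Creb3l3 (0.54). Ucp3, Cpt1a and Ucp2 were at -0.54, -0.32 and -0.17. Saline 2 was the lowest saline heart for 4 of the 5 members and for 11 of 32 other PPAR targets (34.4%), against 29.2% of all genes. For Cpt1a, 1 of those members, saline 2 (2.05) and saline 3 (2.07) were nearly equal. The median deviation of that list was -0.14 in saline 2, against 0.35 in saline 1 and -0.31 in saline 3.

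Of the receptors and coregulators through which PPARs act, 0 of 15 were called by limma. An unadjusted p under 0.05 was reached by 4 of the 15, and by 30.7% of all genes tested (15.6% lower), the share against which all such counts below stand. Groups were apart for 35.7% of all genes (17% with rhTM higher and 18.7% with rhTM lower). In the pathway lists together, 18 of 111 tested genes were apart with rhTM higher and 15 with rhTM lower. Groups apart therefore do not set a gene named below off from genes at large. Ppargc1a and Rxrg were called in the slide-blocked fit, and Esrra, Ppard and Sirt1 were among those called without saline 3. For Rxrg, saline 3 (1.77) stood apart from saline 1 and 2 (3.79 and 3.69), and the difference over all arrays was 0.98 (limma, adjusted p = 0.296). The median difference was 0.23, against 0.014 for all genes tested, and 9 of 15 were higher. Within slide 2 the median was 0.35, against -0.0025 for all. Ppara, the receptor that dominates in heart, lay at 2.68, 2.82 and 1.74 in saline hearts 1, 2 and 3 and at 3.46, 3.54 and 2.40 in rhTM hearts 1, 2 and 3, the opposite direction to the members (0.73 ± 0.42, SE, adjusted p = 0.275; 1.39 within slide 2). Ppard (-0.68 ± 0.36, adjusted p = 0.244), Pparg (-0.19 ± 0.24, 0.608) and Rxra (0.087 ± 0.27, 0.847, its other probe -0.52) were not called either, and within slide 2 they differed by 0.087, -0.025 and 0.49. The coactivator gene Ppargc1a differed by 1.32 ± 0.55 (adjusted p = 0.161) and by 2.61 within slide 2, where the slide-blocked fit called it (adjusted p = 0.0261). That call rests on saline 3, which at 0.62 stood apart from the other saline hearts (2.52 and 2.58), and without it the difference was 0.68. Esrra, an orphan receptor of mitochondrial genes (0.72 ± 0.21, 0.0866), and the deacetylase gene Sirt1 (0.54 ± 0.19, 0.119) had groups apart without passing the threshold, and Sirt1 differed by 0.35 within slide 2.

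Of 8 other genes of the carnitine shuttle and of malonyl-CoA, the inhibitor of Cpt1 enzymes, 0 were called by limma (2 at an unadjusted p under 0.05), with a median of -0.31 over all arrays and 0.15 within slide 2. Cpt1b, the isoform that dominates in heart muscle, lay at 4.73, 4.11 and 3.68 in saline hearts 1, 2 and 3 and at 4.21, 4.14 and 3.67 in rhTM hearts 1, 2 and 3 (-0.17 ± 0.32, adjusted p = 0.740). Its groups overlapped, though saline 1 was above every rhTM heart. Its difference was 0.33 within slide 2 and 0.11 without saline 1. Cpt2, the inner membrane partner, differed by -0.45 ± 0.31 (adjusted p = 0.350) and by 0.0022 within the slide. Acaca, which makes malonyl-CoA, differed by -1.01 ± 0.25 (adjusted p = 0.0659), but its other probes ranged from -1.36 to 1.17. Cpt1c, the isoform of neurons, differed by -0.88 ± 0.24 (0.0767) and the carnitine acetyltransferase gene Crat by -0.52 ± 0.32 (0.302). Within slide 2 Acaca, Cpt1c and Crat differed by -0.58, -0.50 and 0.067. Without saline 3, where group and slide coincide, limma called all 3 lower (adjusted p = 0.00593, 0.00804 and 0.0433). In that fit 19.1% of all genes were called lower.

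Around Pdk4, genes of pyruvate dehydrogenase control lay mostly higher with rhTM, and limma called 0 of 12 (4 at an unadjusted p under 0.05). Of the 12, 11 were higher, with a median of 0.59 and of 0.65 within slide 2. Cardiomyocyte markers lay the same way, 6 of 8 higher with a median of 0.49, and their part in this was not tested. The other kinases were Pdk1 (0.047 ± 0.20, adjusted p = 0.891), Pdk2 (0.11 ± 0.53, 0.904) and Pdk3 (-0.72 ± 0.33, 0.192), which within slide 2 differed by -0.24, 1.27 and -0.93. The other probes of Pdk1 ranged from -0.56 to 0.51. Pdp1, the phosphatase that reverses the kinases' effect, lay at 0.29, 0.47 and -0.20 in saline hearts 1, 2 and 3 and at 1.94, 1.67 and 1.03 in rhTM hearts 1, 2 and 3. The groups were apart, and the difference of 1.36 ± 0.31 missed the threshold (adjusted p = 0.0543), but passed in the number-blocked fit (0.0445). Its other probe differed by 0.079. The other phosphatase gene, Pdp2, differed by 0.49 ± 0.32 (adjusted p = 0.322) and by -0.18 within slide 2. The enzyme subunit gene Pdhb (1.07 ± 0.25, 0.0561) and the pyruvate carrier gene Mpc2 (1.07 ± 0.25, 0.0570) also had groups apart and were not called; Mpc2 differed by 0.63 within slide 2. Mpc1, Mpc2 and Pdp2 passed without saline 3, where group and slide coincide. Pdp1 and Pdhb passed without saline 3, without rhTM 3, and with arrays centred on the median gene.

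Lpl, the lipoprotein lipase that Angptl4 inhibits, was not called. It lay at 7.23, 7.26 and 6.30 in saline hearts 1, 2 and 3 and at 7.52, 7.46 and 7.03 in rhTM hearts 1, 2 and 3 (0.40 ± 0.32, adjusted p = 0.407), with a difference of 1.03 within slide 2. The other 2 probes of Lpl differed by -0.030 and 0.15 over all arrays. Gpihbp1, the capillary protein that anchors the lipase, lay at 5.37, 4.26 and 4.90 and at 3.53, 3.47 and 4.02 in the same order. Its groups were apart, at -1.17 ± 0.33, without passing (adjusted p = 0.0820). The family member Angptl8 (0.82 ± 0.34, adjusted p = 0.158) lay in the opposite direction to Angptl4, but differed by 0.061 within slide 2. It was called without saline 3, where group and slide coincide (adjusted p = 0.00344). Of 9 tested genes on this axis limma called 0 (3 at an unadjusted p under 0.05), 8 were higher and the median was 0.54. Within slide 2 the median was 0.97. Angptl1 and Angptl6 were called in the slide-blocked fit, and for both saline 3 stood below saline 1 and 2. It was at -5.47 against -3.80 and -4.05 for Angptl1, and at -0.14 against 0.81 and 0.76 for Angptl6.

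Carriers related to the uncoupling proteins gave 0 calls by limma among 5 tested (1 at an unadjusted p under 0.05), with a median of -0.40 and of 0.19 within slide 2. Ucp1, the uncoupling protein of brown fat, had no array with a signal well above background. The heart's adenine nucleotide carrier gene Slc25a4 had groups apart (0.67 ± 0.17, adjusted p = 0.0694), Slc25a14 differed by -0.46 ± 0.26 (0.267, its other probe 0.73) and Slc25a30 by -0.40 ± 0.29 (0.368). Within slide 2 Slc25a14 and Slc25a30 differed by -0.80 and -0.84, and without saline 3 Slc25a4 and Slc25a27 were called.

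**Figure D4:**
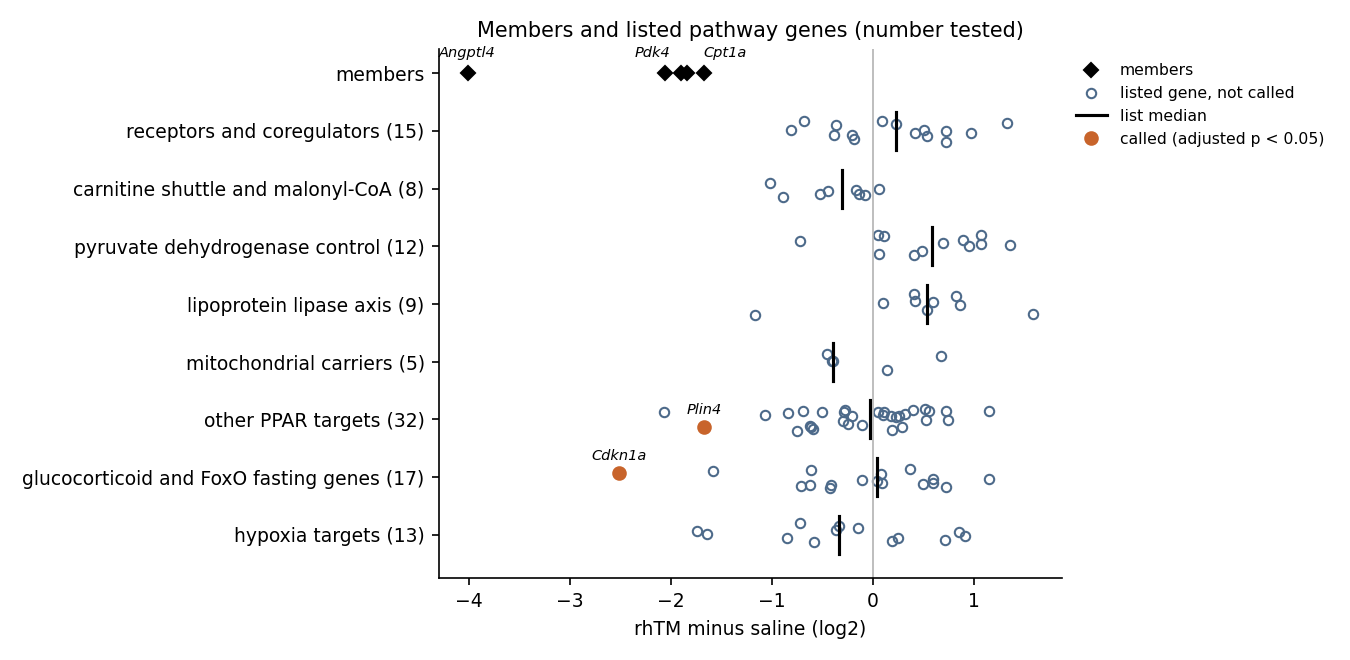
Difference between the groups (rhTM minus saline, log2) of the 5 members (black diamonds) and of the tested genes in each pathway list (circles, with their number; black lines are medians). Filled circles are the genes called, Plin4 (-1.67) and Cdkn1a (-2.51), and the medians of the lists lie between -0.40 and 0.59.

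Over all arrays, other targets of PPARs were evenly split in direction. Of 36 listed, 32 were tested, 16 lay higher and 16 lower, the median was -0.026, and 1 was called by limma. Within slide 2 the median was 0.18. Plin4, a coat protein of lipid droplets, fell by 1.67 on the log2 scale (SE 0.25, 3.18-fold, adjusted p = 0.0284), from 6.12, 5.84 and 5.34 in saline hearts 1, 2 and 3 to 4.06, 3.99 and 4.24 in rhTM hearts 1, 2 and 3. It differed by -1.25 within slide 2 and was called in the slide-blocked fit (adjusted p = 0.0396). The call was lost without saline 1, saline 2, rhTM 1 or rhTM 2 (adjusted p 0.0793 to 0.166) and with no filter on dim probes (0.0602). Plin2 was at 4.91, 3.20 and 5.48 and at 2.21, 2.36 and 2.84 in the same order, with groups apart (-2.06 ± 0.58, adjusted p = 0.0819; 0.0471 without saline 2). The fatty acid transporter gene Cd36 (-0.69 ± 0.24, 0.121) was lower and the glycerol channel gene Aqp7 (1.15 ± 0.39, 0.117; 1.86 within slide 2) higher, neither called. The 14 beta-oxidation enzymes of the list, grouped after their values were seen, had a median of 0.18 and of 0.38 within slide 2. Over all arrays 10 were higher and 4 lower, and limma called 0 (1 at an unadjusted p under 0.05). Cyp4a10, Cyp4a14, Vnn1 and Fgf21, targets best known from liver, had no array well above background for their brightest probe.

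Fasting also acts through glucocorticoids and FoxO factors, and of 17 such genes 1 was called by limma. The median difference was 0.040, and 0.12 within slide 2. Cdkn1a, the cell cycle inhibitor p21, fell by 2.51 on the log2 scale (SE 0.46, adjusted p = 0.0414), from 4.06, 3.54 and 2.69 in saline hearts 1, 2 and 3 to 0.33, 0.78 and 1.64 in rhTM hearts 1, 2 and 3. Its other probe differed by -0.23. The call was lost in the number-blocked fit (adjusted p = 0.0668), in the slide-blocked fit (0.0985; -1.77 within slide 2), without saline 1, saline 2, rhTM 1 or rhTM 2 (0.106 or more), with averaged probes (0.0830), and with no filter on dim probes (0.0790). The glucocorticoid targets Fkbp5 (-1.58 ± 0.56, 0.123), Per1 (-0.61 ± 0.22, 0.127) and Klf15 (0.73 ± 0.27, 0.138) went in different directions, and Klf15 was called in the slide-blocked fit (0.0409, 1.25 within slide 2). That fit also called Irs2 (-1.33, adjusted p = 0.0309) and Sesn1 (2.71, 0.0211). Both calls rest on saline 3, which stood apart from saline 1 and 2. It was at 1.62 against 0.73 and 0.67 for Irs2, and at 1.04 against 3.47 and 3.27 for Sesn1. Over all arrays limma called neither (Irs2 -0.71, adjusted p = 0.164, and Sesn1 1.15, 0.258). Genes named only for a slide-blocked call or one without saline 3 were chosen after their values were seen. Per1 and Klf15 had groups apart. Of the 8 pathway lists together, 111 of 118 genes were tested and 2 were called (limma, adjusted p under 0.05; 5.17% of all genes tested were called in either direction). In the slide-blocked fit 9 were called (5.78% of all genes), in the number-blocked fit 2, and without saline 3 26 (39.6% of all genes).

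Markers of other cells were read beside the members. Heart muscle was plain in all arrays: the 8 cardiomyocyte markers summed to 1991 to 2843 times the 75th percentile in saline and 2749 to 3807 in rhTM hearts, and limma called 0 (2 at an unadjusted p under 0.05). Neutrophil markers, 7 of 8 with a probe, summed to 58.7, 144 and 957 in saline hearts 1, 2 and 3 and to 7.08, 2.00 and 408 in rhTM hearts 1, 2 and 3, and limma called 0 of 7 (3 at an unadjusted p under 0.05, all lower in rhTM hearts). Ucp2, which leukocytes express, was lowest among saline hearts in saline 3, where this sum was highest, and highest among rhTM hearts in rhTM 3 (-0.85), where the sum was highest too, and the part of neutrophils in its difference was not tested. White adipocyte markers summed to 192, 78.2 and 213 in saline and to 163, 122 and 156 in rhTM hearts, mostly from Fabp4, which endothelium shares, and 0 of 3 tested were called by limma (0 at an unadjusted p under 0.05). The lowest sum was in saline 2, where Angptl4 and Pdk4 were also low, and the part of adipose tissue in this was not tested. The adipocyte genes Adipoq and Plin1 had no array with a signal well above background. Endothelial markers summed to 81.2 to 99.2 and 73.9 to 82.0, and macrophage markers to 18.7 to 34.1 and 24.0 to 37.0, with 0 called by limma in either list (1 in each at an unadjusted p under 0.05).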

How the data were processed

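Cy3-labelled cRNA from 6 hearts was read on 1-colour Agilent arrays, and groups came from the sample titles. The scanner files, as deposited, give background-corrected spot intensity, from Agilent Feature Extraction version 10.7.3.1 with an mm9 grid per the file headers (9.1 in the submitters' processing notes), without scaling between arrays. A value table that the authors deposited is on a log2 scale, with its centring and baseline unstated. Against the scanner values, its baseline per probe was the same within a slide (SD of the difference up to 1.89e-05) and not between slides (SD 0.825); the medians of its columns were -0.02, -0.16 and 0.10 (saline hearts 1 to 3) and -0.08, 0.03 and 0.09 (rhTM hearts 1 to 3). It served as an alternative only.

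Processed signals were taken to log2 and scaled by subtracting the log2 75th percentile per array. Spots with outlier flags, control spots and 368 of 56605 probes with no unflagged spot on some array were left out. Probes were named through RefSeq accessions (GRCm38.p6; 32789 probes matched a symbol and 23448 did not), each gene by its brightest probe, and 14701 genes were tested, those well above background throughout either group. limma 3.58.1 in R 4.3.3 (lmFit, eBayes, group as the only term) was run with Benjamini-Hochberg adjustment over all genes tested. The script was tested on simulated data. The number of arrays limits the precision.

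Members and gene lists were chosen with earlier results of these data known. Named genes are the members, 15 receptors and relatives, up to 5 called genes and 3 further genes by p of each list, the genes nearest in profile, and defining markers; some genes that this rule names are not reported here. Same-numbered arrays of both groups deviated together (r = 0.319, 0.235 and 0.372, over genes, which do not count as independent replicates), the basis on which the number was treated as a block; the labels name no shared litter or day, and saline 1 with rhTM 2 gave 0.314. Alternatives were normexp, quantile and median scaling, filters, probe averaging, blocks, the deposited table and leaving out each array.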

Additional observations from a re-analysis of the deposited data

How the results depend on the processing

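The differences of the 5 members kept their sign under all 16 alternatives. Nothing is read from this, since the members were picked in part for this contrast. The number-blocked fit, other filters on dim probes and keeping flagged probes left each member's estimate unchanged by design. Averaging probes could move only that of Ucp2. In the slide-blocked fit Ucp2 moved to -1.32, and in the deposited value table, whose baseline differs between slides, Angptl4 moved to -5.74. With 1 array left out they ranged from -5.09 to -3.36 (Angptl4), -1.83 to -1.36 (Cpt1a), -2.18 to -1.52 (Ucp2), -2.11 to -1.44 (Ucp3) and -3.20 to -1.42 (Pdk4).

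Over all genes, limma called 405 higher and 355 lower. It called 200 and 212 with normexp, 132 and 19 with no filter on dim probes (22815 genes tested), and 2205 and 2314 from the deposited table. With 1 array left out the counts ranged from 0 to 3007 higher and 0 to 2808 lower. Leaving out saline 1 gave 2 and 0 (1341 and 1452 at unadjusted p under 0.05), saline 2 gave 55 and 3, saline 3 gave 3007 and 2808, rhTM 1 gave 0 and 0 (1271 and 1314 unadjusted), rhTM 2 gave 2 and 0 (1210 and 1261 unadjusted) and rhTM 3 gave 382 and 512. Centring on the median gene gave 483 and 268, or 64.3% higher against 53.3%. Using replicate number as the block gave 357 and 242; among the members and pathway genes this changed the calls of Angptl4, Ucp2, Ucp3, Cdkn1a and Pdp1 and no other. In the slide-blocked fit they were 563 and 287. The causes of these changes were not tested.

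Of the pathway genes, 0 were called higher and 2 lower. The counts were 2 higher with centring, 6 higher in the slide-blocked fit, 1 higher and 1 lower in the number-blocked fit, 29 and 19 in the deposited table, 0 lower with no filter and 1 lower with averaged probes. Leaving out 1 array gave 0 to 13 higher and 0 to 13 lower, both largest without saline 3, and 3 and 4 without rhTM 3.

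Of 38 named pathway genes tested, 10 changed sign somewhere, none of them called in any of those fits. In the slide-blocked fit these were Cpt1b (0.33), Cpt2 (0.0022), Crat (0.067), Pdk1 (-0.24), Pdp2 (-0.18) and Ppard (0.087). In the deposited table they were Cpt1b (0.33), Crat (0.069) and Pdk1 (-0.40). With averaged probes they were Pdk1 (-0.074), Rxra (-0.22) and Slc25a14 (0.14). Over the fits with 1 array left out, Cpt1b ran from -0.41 to 0.11 (turned without saline 1), Pparg from -0.33 to 0.029 (saline 1), Pdk1 from -0.078 to 0.19 (saline 2), Pdk2 from -0.47 to 0.42 (saline 3, rhTM 1 and rhTM 2) and Rxra from -0.12 to 0.28 (saline 3 and rhTM 1). Normexp on the mean signal was not run, since the files used hold medians. Normexp on the median signal was chosen after seeing the data.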

Other observations

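Angptl4 is also known as a gene induced by low oxygen, and a list of 13 hypoxia genes was read beside it. Of these, limma called 0 at an adjusted p under 0.05, and 5 of 13 had an unadjusted p under 0.05, as had 30.7% of all genes. In the slide-blocked fit 1 was called, Hif1a, for which saline 3 (4.89) stood apart from saline 1 and 2 (3.16 and 3.00). Over all arrays Hif1a differed by -0.85 (limma, adjusted p = 0.279). The median difference was -0.33, and -0.081 within slide 2, with 8 genes lower and 5 higher. Pfkfb3, which makes the activator of phosphofructokinase, lay at 1.63, 1.90 and 1.76 in saline hearts 1, 2 and 3 and at -0.17, -0.40 and 0.95 in rhTM hearts 1, 2 and 3 (-1.64 ± 0.37, SE, adjusted p = 0.0541). Its groups were apart, and its other probe differed by -2.03. It passed with normexp, without saline 3 and without rhTM 3. Hif3a differed by -1.74 ± 0.51 (adjusted p = 0.0889, its other probe -0.17, -1.04 within slide 2) and the carbonic anhydrase gene Car9 by 0.71 ± 0.21 (0.0914, its other probe -0.092).

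Among the remaining marker lists, fibroblast genes summed to 192 to 210 times the 75th percentile in saline and 193 to 271 in rhTM hearts, with 0 called by limma (2 at an unadjusted p under 0.05). Skeletal muscle markers summed to 1.17 to 2.21 and 1.39 to 1.95; Actn3 and Myh1 had no array well above background, and 1 gene was called higher, Myh4, which was not well above background in any saline heart. Hepatocyte markers summed to 0.0895 to 0.144 and 0.124 to 0.139, and Alb and Apoa1 had no array well above background.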
